A study of Mus musculus with 19 samples.

Results

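The genes described here encode the proteasome, its immune form, its activators and its assembly factors. They were taken as every gene symbol that begins with Psm, continues with one letter from a to g and ends in a number, which gave 48 of the 55573 genes listed for 7 mouse tissues, the same 48 of 55487 for cold brown fat and 46 of 13756 for cold inguinal fat, where *Psma8* and *Psmb11* were not listed. The immunoproteasome genes *Psmb8*, *Psmb9* and *Psmb10* were set against their standard counterparts *Psmb5*, *Psmb6* and *Psmb7*. RNA was sequenced from 19 libraries, and a level is given as FPKM, fragments mapped to a gene, scaled to its length and to the size of the library. FPKM is a value per length, so levels of different genes can be compared as far as the transcript models used hold.

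The proteasome is the protease that breaks down proteins tagged with ubiquitin. Its 20S core is a barrel of stacked rings built from α subunits (Psma genes) and β subunits (Psmb genes), and only the β subunits encoded by *Psmb5*, *Psmb6* and *Psmb7* cut peptide bonds. Interferon signalling replaces them with the subunits encoded by *Psmb8*, *Psmb9* and *Psmb10*, and the resulting immunoproteasome cuts peptides that suit loading on major histocompatibility complex (MHC) class I molecules. The 19S regulatory particle (Psmc ATPases and Psmd subunits) recognises ubiquitinated proteins and threads them into the core, and the PA28 ring of *Psme1* and *Psme2* is another cap that interferon induces. In fat, the transcription factor *Nfe2l1* is known to maintain proteasome genes in brown adipocytes during cold.

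Inguinal white adipose tissue (iWAT) and brown adipose tissue (BAT) came from male mice of 5 months on chow that were kept at 8 °C for 1 week. In each tissue, 3 libraries came from MCK-Musclin mice and 3 from wild-type (WT) mice. MCK-Musclin mice carry the coding sequence of Musclin (*Ostn*), a secreted muscle peptide, under a 4.8-kb murine muscle creatine kinase promoter on a C57BL/6J background after at least 8 generations of backcrossing. 5 founder lines were made, and the labels do not say which line was sequenced. A further 7 libraries, 1 each, came from WT C57BL/6J mice on chow: brain, heart, tibialis anterior muscle (TA), small intestine, liver, and brown and white adipose tissue, with no age given. The muscle promoter limits transgene expression to muscle by design. Per the study's reporting summary the RNA samples of a group came from independent animals, so p-values measure the spread between animals.

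The marker lists of fast muscle, heart, liver, small intestine, brain, brown fat and general adipocytes were each highest in the tissue library of that name, with general adipocyte markers highest in white adipose. *Ostn* had 30.3 to 37.9 FPKM in the 3 MCK-Musclin libraries of BAT and was listed at 0 in the 3 WT libraries. In iWAT it was listed at 0 in the library labelled MCK-Musclin replicate 1, with 5.17 and 4.21 FPKM in replicates 2 and 3 and at most 0.225 FPKM in WT. The summed level of 12 fast skeletal muscle markers in iWAT was 11.2, 854 and 4794 FPKM in WT replicates 1, 2 and 3. In MCK-Musclin replicates 1, 2 and 3 of iWAT it was 11.2, 164 and 195 FPKM. In BAT it was 529 to 838 FPKM in WT and 874 to 1925 FPKM in MCK-Musclin mice. The part of muscle tissue in the levels of *Ostn* was not tested. Depth relative to one library of the same table was 0.92 to 1.05 for the 7 tissues and 0.889 to 1.11 for BAT, and was unknown for iWAT.

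The stretches just upstream of the transcription start are shown for 5 of the 6 active-site genes, because the immunoproteasome and standard groups differed most across tissues and in iWAT. They are the 250 bases before the start in RefSeq on GRCm38.p6, written 5′ to 3′ on the strand of the gene, and RefSeq's table used here had no entry for *Psmb7*. Capitals mark a match, on either strand, to the core of an antioxidant response element (TGACNNNGC).
Psmb8, immunoproteasome, chr17:34197945-34198194, forward strand: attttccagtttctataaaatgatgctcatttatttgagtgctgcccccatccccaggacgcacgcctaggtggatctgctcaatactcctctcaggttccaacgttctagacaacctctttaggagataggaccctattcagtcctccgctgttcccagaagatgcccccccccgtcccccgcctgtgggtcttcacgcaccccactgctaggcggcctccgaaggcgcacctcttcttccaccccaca
Psmb9, immunoproteasome, chr17:34187331-34187580, reverse strand: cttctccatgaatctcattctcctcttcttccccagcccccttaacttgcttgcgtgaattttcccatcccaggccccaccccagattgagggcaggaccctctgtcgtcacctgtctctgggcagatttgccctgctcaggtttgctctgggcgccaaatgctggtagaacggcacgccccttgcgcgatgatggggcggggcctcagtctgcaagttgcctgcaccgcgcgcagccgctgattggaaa
Psmb10, immunoproteasome, chr8:105938393-105938642, reverse strand: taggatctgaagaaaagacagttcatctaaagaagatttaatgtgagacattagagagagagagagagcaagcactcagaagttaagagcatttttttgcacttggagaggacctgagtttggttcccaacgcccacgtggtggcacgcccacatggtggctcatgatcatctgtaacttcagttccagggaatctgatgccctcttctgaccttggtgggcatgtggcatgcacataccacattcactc
Psmb5, standard, chr14:54617996-54618245, reverse strand: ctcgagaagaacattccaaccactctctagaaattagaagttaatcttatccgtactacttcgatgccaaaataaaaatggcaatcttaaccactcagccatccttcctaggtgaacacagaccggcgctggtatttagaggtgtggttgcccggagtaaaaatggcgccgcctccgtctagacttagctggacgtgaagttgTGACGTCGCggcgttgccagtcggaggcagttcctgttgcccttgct
Psmb6, standard, chr11:70525107-70525356, forward strand: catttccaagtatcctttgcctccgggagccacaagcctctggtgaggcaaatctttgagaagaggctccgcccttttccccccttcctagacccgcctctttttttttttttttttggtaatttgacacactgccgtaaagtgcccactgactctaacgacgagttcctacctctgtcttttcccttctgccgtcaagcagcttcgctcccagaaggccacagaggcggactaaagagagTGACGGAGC
TGACNNNGC stood before *Psmb5* and *Psmb6*, beginning 47 and 9 bases before the start. Among the 40 proteasome genes with an entry (43 windows) it also stood before *Psmc6*, *Psmd9* and *Psmd12*, which makes 5 genes. It was found in 10.2% of all 32851 windows of this length, so the share among proteasome genes was near that of all windows. No match was found in the windows of *Psmb8*, *Psmb9* and *Psmb10*, as in most windows of this length. The part of this motif in the levels was not tested. The windows of *Psmb8* and *Psmb9* follow the RefSeq starts and lie inside the gene spans given next. They thus do not cover the bases before those spans. *Psmb9* (chr17:34181987-34187764, reverse strand) and *Psmb8* (chr17:34197721-34201454, forward strand) lie next to the peptide transporter genes *Tap1* and *Tap2*, and exons of *Psmb9* and *Tap1* overlap by up to 212 bases. The exons of *Psmb8* overlap the antisense gene *Gm20496* by up to 259 bases. Reads were assigned without strand, so part of the signal of these genes cannot be told apart from their overlapping partners.

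Across the 7 tissues, the immunoproteasome genes varied far more than the standard core. *Psmb8*, which encodes the immune counterpart of *Psmb5*, had 89.7 FPKM in small intestine and 1.11 FPKM in brain. Between them lay white adipose with 15.4 FPKM, brown adipose with 10.8, liver with 10.7, heart with 6.09 and TA with 2.80. There was 1 library per tissue, so none of these differences has a replicate check and no test was made. Small intestine stood 5.83-fold above the next tissue.

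*Psmb9*, the counterpart of *Psmb6*, had 20.1 FPKM in small intestine, 5.99 in white adipose, 4.66 in liver, 4.04 in brown adipose, 2.03 in heart, 0.61 in TA and 0.53 in brain. *Psmb10*, the counterpart of *Psmb7*, had 37.9 FPKM in small intestine, 9.67 in liver, 8.54 in brown adipose, 7.72 in white adipose, 6.65 in heart, 5.87 in brain and 2.24 in TA. The order of the tissues below small intestine thus differed among the 3 genes, and the brain library held more *Psmb10* than *Psmb8* and *Psmb9* together. The highest level was 80.6 times the lowest for *Psmb8*, 38.2 times for *Psmb9* and 16.9 times for *Psmb10*.

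The PA28 genes followed with smaller ranges. *Psme1* had 289 FPKM in small intestine, 119 in liver, 96.7 in brown adipose, 89.6 in white adipose, 66.6 in heart, 25.3 in brain and 25.1 in TA, a range of 11.5-fold. *Psme2* had 194 FPKM in small intestine, 93.6 in white adipose, 56.8 in brown adipose, 52.004 in liver, 33.5 in heart, 17.7 in brain and 17.5 in TA, a range of 11.1-fold. These 2 genes were thus lowest in brain and TA, as *Psmb8*, *Psmb9* and *Psmb10* were. *Psme2b*, a near-identical copy of *Psme2*, was listed at 0.056 to 4.78 FPKM in the 7 tissues, so the split of reads between the copies is uncertain.

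The standard active-site genes stayed within narrow limits. *Psmb5* had 29.9 FPKM in small intestine, 28.4 in brown adipose, 25.7 in liver, 25.6 in TA, 20.6 in white adipose, 20.03 in brain and 15.02 in heart. *Psmb6* had 108 FPKM in small intestine, 75.3 in TA, 69.1 in white adipose, 64.3 in brown adipose, 60.3 in liver, 53.9 in heart and 50.98 in brain. *Psmb7* was highest in TA with 45.6 FPKM, followed by brown adipose with 31.7, liver with 31.4, white adipose with 30.6, small intestine with 28.4, brain with 26.9 and heart with 24.4. Their highest levels were 1.99, 2.12 and 1.87 times their lowest.

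The ratio of the groups inside one library does not depend on how libraries are scaled. *Psmb8*, *Psmb9* and *Psmb10* together made up 47.0% of the summed FPKM of the 6 active-site genes in small intestine. The share was 19.5% in white adipose, 17.6% in liver, 15.8% in brown adipose, 13.7% in heart, 7.12% in brain and 3.71% in TA. The pairs differed, since in small intestine *Psmb8* over *Psmb5* was 3.00, *Psmb10* over *Psmb7* 1.34 and *Psmb9* over *Psmb6* 0.186. *Psmb8* over *Psmb5* was lowest in brain (0.056, against 0.109 in TA). On the log2 scale the ratio of the summed levels was -0.17 in small intestine and -4.70 in TA. Small intestine lay 2.36 above the median of the other 6 tissues, 2.18 with the mean of log2(FPKM + 1) of the subunits and 1.92 over the 7 α subunits.

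**Figure D1:**
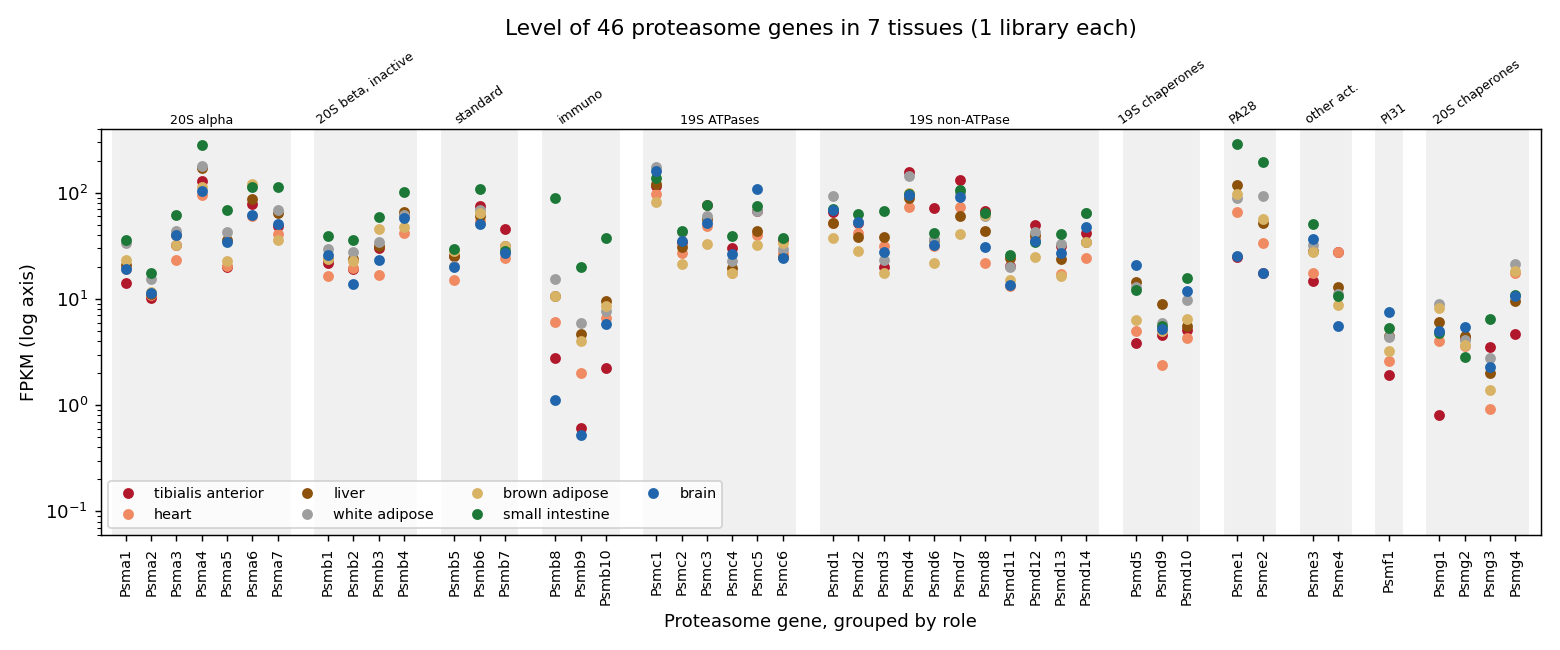
FPKM (log axis) of 46 proteasome genes, grouped by role, with 1 point per tissue library. The points of Psmb8, Psmb9, Psmb10, Psme1 and Psme2 span 11.1-fold to 80.6-fold, with small intestine on top. Those of Psmg1 also span 11.1-fold, with white adipose on top. The 14 standard core genes span 1.73-fold to 3.48-fold.

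Taken over all members, 46 of the 48 had a mean of at least 1 FPKM over the 7 tissues. The exceptions were *Psma8*, the testis α subunit, at 0.52 FPKM at most, and *Psmb11*, the thymus β subunit, at 0.03 FPKM in brain and listed at 0 in the other 6 libraries. Of all 14692 genes at this mean, 42.2% had a highest level at least 8 times the lowest on the FPKM + 1 scale, against 5 of 46 members, which were *Psmb8*, *Psmb9*, *Psmb10*, *Psme1* and *Psme2*. At least 2-fold was reached by 96.9% of all genes and by 38 members. At least 4-fold was reached by 69.8% of all genes and by 8 members, which adds *Psmd5*, *Psme4* and *Psmg1*. The median of this ratio was 2.77 over the members and 6.40 over all genes.

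Small intestine held the highest level of 27 of the 46 members (58.7%), against 27.9% of all genes. TA held it for 7 members (15.2%) against 5.59%, and white adipose for 5 (10.9%) against 21.3%. Brain held it for 4 members (8.70%) against 27.5%, and heart, liver and brown adipose for 1 each (2.17%) against 3.51%, 8.52% and 5.66%. These counts depend on the scaling of the libraries. With median-ratio scaling small intestine was highest for 7 members, *Psma5*, *Psmb8*, *Psmb9*, *Psmb10*, *Psmd10*, *Psme1* and *Psme2* (15.2%, against 19.4% of all genes), and TA for 30 (65.2%, against 16.7%). With TPM the counts were 24 (52.2%, against 23.6%) and 3 (6.52%, against 4.47%). The share of members highest in small intestine was thus above that of all genes in FPKM and with TPM, and not with median-ratio scaling. The immunoproteasome and PA28 genes were highest in small intestine in FPKM, with TPM and with median-ratio scaling, as was *Psma5* of the standard core.

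The parts of the particle did not share one tissue order. In FPKM, 6 of the 7 α genes and all 4 inactive β genes were highest in small intestine, with *Psma4* at 286 FPKM there and 94.9 to 179 FPKM elsewhere. *Psma6* was highest in brown adipose (121 FPKM), followed by white adipose (119) and small intestine (114). Of the 11 non-ATPase 19S genes, 5 were highest in TA in FPKM, namely *Psmd4*, *Psmd6*, *Psmd7*, *Psmd8* and *Psmd12*. *Psmd4*, a ubiquitin receptor, had 156 FPKM in TA, 143 in white adipose and 74.0 to 100 in the other tissues. *Psmd6* had 71.3 FPKM in TA against 22.0 to 42.1 elsewhere.

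The ATPase *Psmc5* was highest in brain with 110 FPKM, against 32.1 to 74.7 in the other tissues. *Psme4*, the PA200 activator, had 28.0 FPKM in heart and 27.9 in TA, against 5.63 to 13.04 in the rest. The assembly factors behaved differently again. *Psmg1*, a chaperone of α ring assembly, had 8.93 FPKM in white adipose, 8.16 in brown adipose, 6.12 in liver, 5.04 in brain, 4.76 in small intestine, 4.02 in heart and 0.80 in TA. Its range was 11.1-fold in FPKM, and median-ratio scaling put brown adipose first. *Psmd5*, a chaperone of the 19S base, had 20.7 FPKM in brain and 3.85 in TA.

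Summed over the 48 genes, the level was 2941 FPKM in small intestine, 2172 in white adipose, 1801 in TA, 1769 in liver, 1637 in brain, 1510 in brown adipose and 1338 in heart. This order changed with the scaling. Small intestine and white adipose stayed first with TPM, and median-ratio scaling put TA first and brain last. Beside these values, the summed level of 16 leukocyte markers was 178 FPKM in small intestine, 166 in white adipose, 51.7 in brain, 48.2 in liver, 35.7 in brown adipose, 20.3 in heart and 5.90 in TA. White adipose and small intestine were thus close in the sum of these markers, with 29.1 and 148 FPKM of the immunoproteasome subunits. They were not close in the median marker, at 2.93 FPKM in white adipose and 10.8 FPKM in small intestine. The part of leukocytes in these levels was not tested. In bulk tissue a change in the number of cells of a type and a change in RNA per cell cannot be told apart.

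Members of one particle did not have one FPKM level. Among the 14 genes of the standard core, *Psma2* was the lowest in 19 of 19 libraries. *Psma4* was the highest in 14 libraries and *Psma6* in 5. The highest was 8.71 to 19.6 times the lowest within a library. FPKM depends on the transcript models used, and their part in this order was not tested.

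In cold iWAT, *Psmb8* and *Psmb9* were higher in every MCK-Musclin than in every WT library, by more than the standard active-site genes, but neither passed an adjusted p of 0.05. *Psmb8* had 62.5, 46.5 and 47.2 FPKM in the WT libraries and 77.1, 70.6 and 74.9 FPKM in the MCK-Musclin libraries. All MCK-Musclin libraries lay above all WT libraries. The group means were 52.1 ± 9.02 and 74.2 ± 3.30 FPKM (SD, n = 3 each), a ratio of 1.42. The log2 difference on the log2(FPKM + 1) scale, which understates changes of low genes, was 0.51 (SE 0.13) with limma (Benjamini-Hochberg adjusted p = 0.157 over 12197 genes, unadjusted p under 0.05).

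*Psmb9* had 9.47, 6.35 and 7.95 FPKM in WT and 9.95, 10.8 and 12.9 FPKM in MCK-Musclin libraries, again without overlap. The means were 7.92 ± 1.56 and 11.2 ± 1.52 FPKM (SD, n = 3 each), and the log2 difference was 0.46 (SE 0.16, unadjusted p under 0.05, limma adjusted p = 0.221). *Psmb10* had 11.1, 9.96 and 9.995 FPKM in WT and 11.3, 12.5 and 10.9 FPKM in MCK-Musclin libraries. Its groups overlapped, and its log2 difference of 0.15 (SE 0.10) did not pass (limma adjusted p = 0.505).

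*Psme2*, the PA28β gene, had 231, 203 and 175 FPKM in WT and 259, 261 and 236 FPKM in MCK-Musclin libraries, a log2 difference of 0.31 (SE 0.12, unadjusted p under 0.05, limma adjusted p = 0.271). The groups did not overlap. *Psme2b* had 20.5, 12.5 and 18.4 FPKM in the same WT libraries and 24.3, 24.1 and 21.5 FPKM in the MCK-Musclin libraries. The split of reads between the copies is uncertain, so *Psme2b* is no independent check on *Psme2*. *Psme1*, the PA28α gene, had 205, 206 and 157 FPKM in WT and 231, 193 and 226 FPKM in MCK-Musclin libraries. Its groups overlapped, and its log2 difference was 0.20 (SE 0.14, limma adjusted p = 0.512).

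The standard active-site genes had log2 differences between -0.05 and 0.07. *Psmb5* had 35.3, 30.1 and 23.3 FPKM in WT and 33.3, 30.6 and 26.6 FPKM in MCK-Musclin libraries (log2 difference 0.04, SE 0.16). *Psmb6* had 115, 110 and 109 FPKM in WT and 118, 117 and 116 FPKM in MCK-Musclin libraries (0.07, SE 0.08), which did not overlap although the means differed by 5.14%. *Psmb7* had 33.3, 30.3 and 33.5 FPKM in WT and 32.7, 32.4 and 28.8 FPKM in MCK-Musclin libraries (-0.05, SE 0.10). None of the 3 had an unadjusted p under 0.05 (limma adjusted p = 0.920, 0.699 and 0.836, in that order).

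Outside these groups, *Psmg3* and *Psmd3* had an unadjusted p under 0.05. *Psmg3*, a chaperone of α ring assembly, had 2.81, 2.50 and 3.29 FPKM in WT and 3.60, 3.72 and 4.195 FPKM in MCK-Musclin libraries, a log2 difference of 0.33 (SE 0.12, limma adjusted p = 0.258). Its exons overlap those of *Gm26938* on the same strand by up to 280 bases. *Psmd3*, a scaffold subunit of the 19S lid, had 18.5, 18.0 and 18.4 FPKM in WT and 56.0, 17.7 and 48.7 FPKM in MCK-Musclin libraries. Its groups overlapped, since MCK-Musclin replicate 2 lay below all WT libraries. The log2 difference was 0.96 (SE 0.38, limma adjusted p = 0.275).

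**Figure D2:**
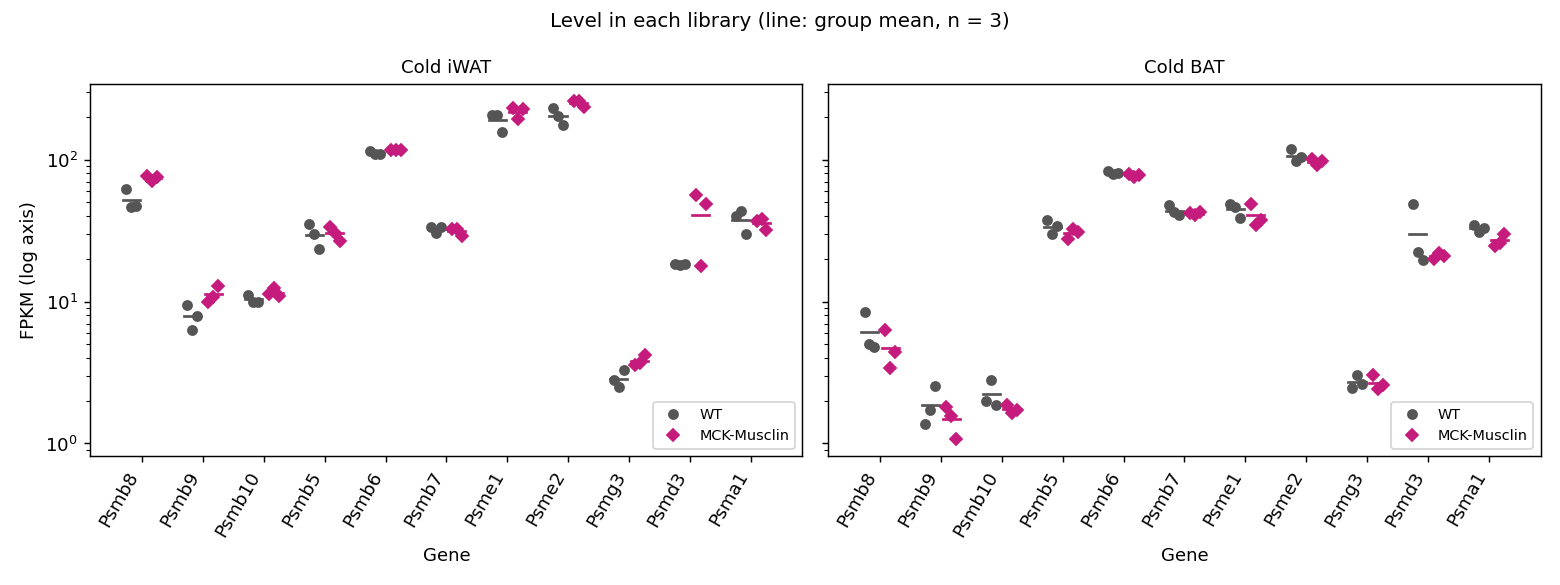
FPKM (log axis) of 11 proteasome genes in each of the 6 cold iWAT and 6 cold BAT libraries, with circles for WT, diamonds for MCK-Musclin and a line at each group mean. In iWAT the diamonds of Psmb8, Psmb9, Psme2 and Psmg3 lie above the circles, and Psmd3 takes values near 18 or above 48 FPKM.

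Over all members, 5 of 46 (10.9%) were higher in iWAT at an unadjusted p under 0.05, against 13.1% of all genes, and 0 were lower, against 3.44%. The share of members was thus near the background. No member and no other gene passed an adjusted p of 0.05 with limma. All 46 listed members passed the minimum mean of 1 FPKM. The cutoff of the study for iWAT, p under 0.05 and a log2 difference beyond 0.5, was passed by *Psmb8* and *Psmd3*, 4.35% of the members, against 5.04% of all genes in the higher and 0.902% in the lower direction. The groups did not overlap for 10 members (21.7%), all higher, against 17.9% of all genes higher and 5.44% lower. These were *Psma4*, *Psmb6*, *Psmb8*, *Psmb9*, *Psmd4*, *Psmd10*, *Psme2*, *Psmg2*, *Psmg3* and *Psmg4*.

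By role, the median log2 difference was 0.46 over the 3 immunoproteasome genes and 0.26 over *Psme1* and *Psme2*. It was -0.04 over the 7 α genes, 0.06 over the 4 inactive β genes, 0.04 over the 3 standard active-site genes, 0.01 over the 6 ATPases and 0.04 over the 11 non-ATPase 19S genes. The median was 0.05 over all 46 members and 0.06 over all 12197 genes, and 31 of 46 members (67.4%) lay above 0 against 61.3% of all genes. Among the 4 core assembly chaperones it was 0.16, with *Psmg2*, *Psmg3* and *Psmg4* higher without overlap. Of the 31 subunits of the standard core and the 19S particle, only *Psmd3* had an unadjusted p under 0.05.

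The calls rested in part on single libraries and on the scaling. *Psmb8* kept a p under 0.05 in all 17 alternatives, with log2 differences of 0.44 to 0.69, and *Psmb9* in 15 of 17, with 0.33 to 0.64. *Psmb9* lost the call without WT replicate 2 and without MCK-Musclin replicate 3 (limma adjusted p = 0.430 and 0.476). *Psme2* kept the call in 10 of 17 alternatives. It was lost with TPM, median-ratio scaling and quantile normalization, and without WT replicate 2 or 3 or MCK-Musclin replicate 1 or 2. *Psmg3* kept the call in 10 of 16 alternatives. It was lost with median-ratio scaling and quantile normalization, and without WT replicate 1 or 2 or MCK-Musclin replicate 2 or 3. Without the library labelled MCK-Musclin replicate 1, in which *Ostn* was listed at 0, *Psmb8*, *Psmb9* and *Psmg3* were called higher and *Psme4* lower. Without the muscle-rich WT replicate 3 *Psmb8*, *Psmb9* and *Psmg3* were called higher. *Psmd3* was called in 9 of 17 alternatives. It lost the call without any one of the WT libraries or MCK-Musclin replicate 1 or 3. Median-ratio scaling, quantile normalization and robust estimation also lost it. Its limma adjusted p-values over the alternatives ran from 0.0387, without MCK-Musclin replicate 2, to 0.535.

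**Figure D3:**
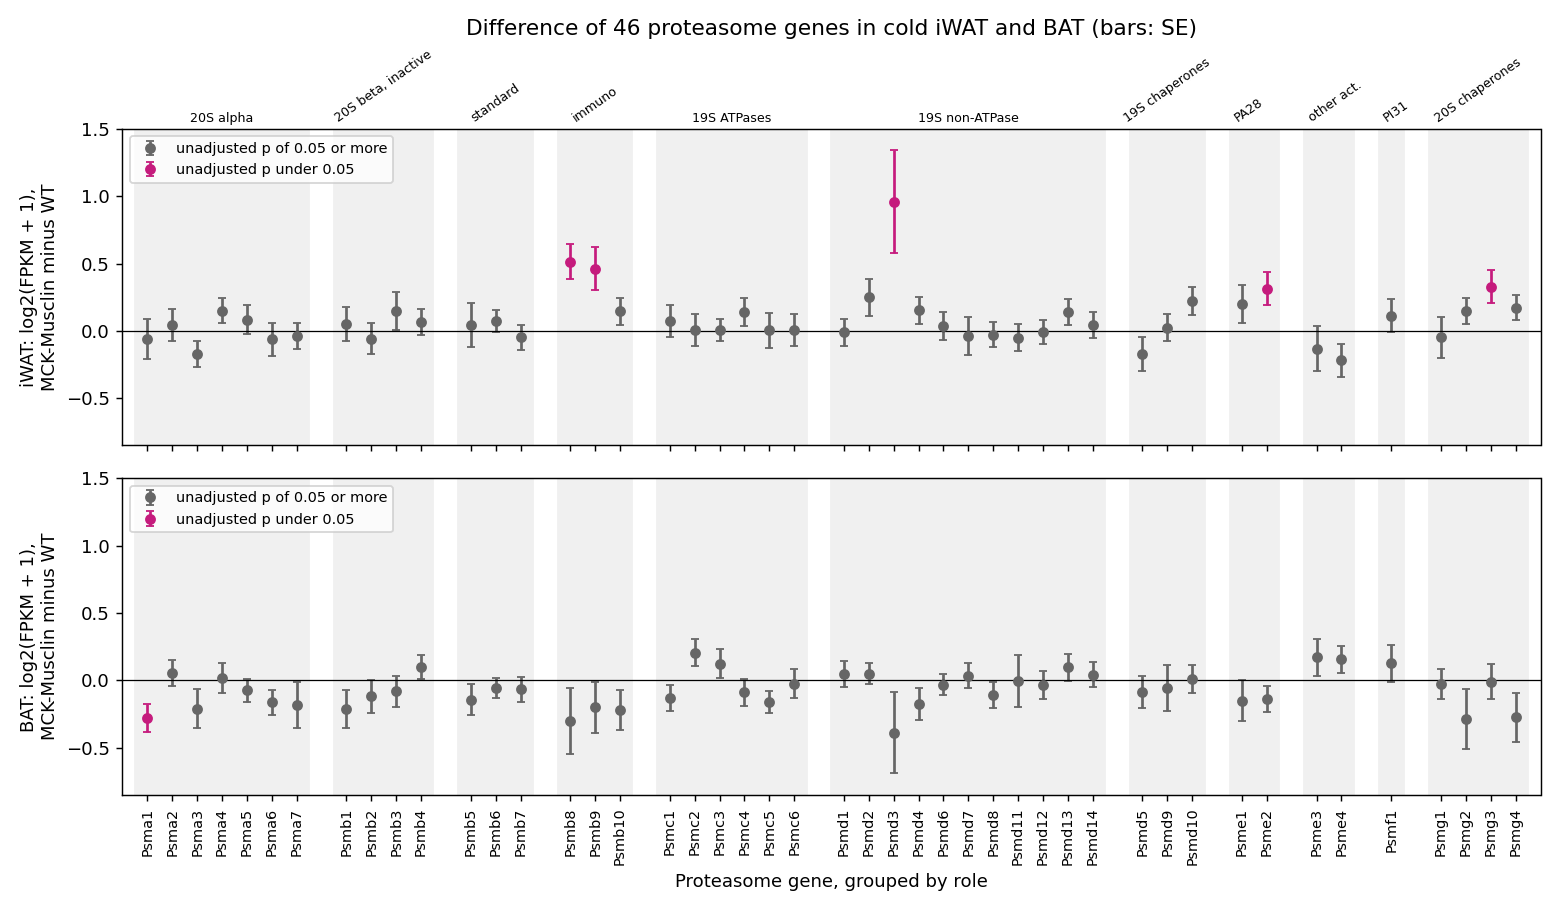
Log2 difference in log2(FPKM + 1), MCK-Musclin minus WT, of 46 proteasome genes in cold iWAT (top) and BAT (bottom), with SE bars and genes with an unadjusted limma p under 0.05 coloured. In iWAT the coloured points are Psmb8, Psmb9, Psmd3, Psme2 and Psmg3, all above 0, and in BAT the coloured point is Psma1, below 0.

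In cold BAT the immunoproteasome genes were low and were not called in either direction. *Psmb8* had 8.45, 5.001 and 4.78 FPKM in WT and 6.27, 3.42 and 4.44 FPKM in MCK-Musclin libraries, a log2 difference of -0.30 (SE 0.25, limma adjusted p = 0.968). *Psmb9* had 1.37, 1.72 and 2.53 FPKM in WT and 1.81, 1.57 and 1.08 FPKM in MCK-Musclin libraries (-0.20, SE 0.19). *Psmb10* had 1.98, 2.81 and 1.86 FPKM in WT and 1.87, 1.63 and 1.71 FPKM in MCK-Musclin libraries (-0.22, SE 0.15). All 3 groups of values overlapped.

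*Psme1* had 48.8, 46.7 and 38.6 FPKM in WT and 48.8, 34.8 and 37.7 FPKM in MCK-Musclin libraries (log2 difference -0.15, SE 0.15). *Psme2* had 118, 97.6 and 104 FPKM in WT and 101.04, 91.7 and 97.5 FPKM in MCK-Musclin libraries (-0.13, SE 0.10), with *Psme2b* at 28.1 to 40.9 FPKM over the 6 libraries. The groups overlapped for both PA28 genes. In the brown adipose library of the 7 tissues *Psme2b* was listed at 1.72 FPKM, so its level differed widely between the tables.

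The standard active-site genes had log2 differences between -0.14 and -0.06, and their summed level was 152 to 168 FPKM in WT and 149 to 152 FPKM in MCK-Musclin libraries, which did not overlap. *Psmb5* had 37.7, 29.7 and 33.8 FPKM in WT and 27.6, 32.5 and 31.1 FPKM in MCK-Musclin libraries (log2 difference -0.14, SE 0.12). *Psmb6* had 82.8, 79.8 and 80.2 FPKM in WT and 79.5, 76.0 and 78.1 FPKM in MCK-Musclin libraries (-0.06, SE 0.07), which did not overlap. *Psmb7* had 47.7, 43.0 and 40.6 FPKM in WT and 42.1, 40.4 and 42.6 FPKM in MCK-Musclin libraries (-0.07, SE 0.09).

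*Psma1*, an α ring gene, was the only member with an unadjusted p under 0.05 in BAT. It had 34.4, 30.7 and 33.2 FPKM in WT and 24.8, 26.0 and 30.1 FPKM in MCK-Musclin libraries, without overlap. Its log2 difference was -0.28 (SE 0.10, limma adjusted p = 0.968). The call was lost when the markers of adipocytes set the scale and without WT replicate 1, WT replicate 3, MCK-Musclin replicate 1 or MCK-Musclin replicate 2. The limma adjusted p ranged from 0.882 to 0.995 over the alternatives.

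*Psmd3* in BAT repeated the pattern of separate levels. It had 48.6, 22.2 and 19.6 FPKM in WT and 20.1, 22.1 and 20.8 FPKM in MCK-Musclin libraries (log2 difference -0.39, SE 0.30). The high library was WT replicate 1 here, while in iWAT the high libraries were from MCK-Musclin mice. In the 7 tissues *Psmd3* had 17.5 FPKM in brown adipose, 19.96 in TA, 23.2 in white adipose, 27.6 in brain, 31.9 in heart, 38.5 in liver and 68.1 in small intestine.

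Over all members, 1 of 46 (2.17%) was lower in BAT at an unadjusted p under 0.05, against 2.71% of all genes, and 0 were higher, against 2.18%. No member passed an adjusted p of 0.05 with limma, and of all 10893 genes only *Ostn* did (0.00918%). The cutoff of the study for BAT, p under 0.05 and a log2 difference beyond 0.3, was passed by 0 members, against 1.85% of all genes higher and 2.15% lower. The groups did not overlap for 4 members in the lower direction (8.70%), *Psma1*, *Psma5*, *Psmb6* and *Psmc5*, against 5.63% of all genes. *Psme4* was the only one that did not overlap in the higher direction (2.17%, against 4.38%). It had 12.04, 11.1 and 10.3 FPKM in WT and 13.2, 12.3 and 12.04 FPKM in MCK-Musclin libraries. 46 members passed the minimum mean of 1 FPKM, and *Psma8* and *Psmb11* did not. The median log2 difference was -0.07 over the members and -0.01 over all genes tested, and 14 of 46 members (30.4%) lay above 0 against 47.7% of all genes.

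The ratio inside a library brings the sets together. In iWAT the immunoproteasome genes made up 31.2, 26.9 and 28.2% of the summed active-site FPKM in WT and 34.9, 34.3 and 36.5% in MCK-Musclin libraries, without overlap. The means were 28.8% ± 2.20 and 35.2% ± 1.16 (SD, n = 3 each). The log2 ratio differed by 0.43, and by 0.37 to 0.52 when one library was left out. Each pair pointed the same way without overlap: *Psmb8* over *Psmb5* was 1.78 ± 0.24 in WT and 2.48 ± 0.29 in MCK-Musclin mice, *Psmb9* over *Psmb6* was 0.071 ± 0.013 and 0.096 ± 0.014, and *Psmb10* over *Psmb7* was 0.320 ± 0.019 and 0.370 ± 0.022 (SD, n = 3 each). The summed standard subunits over the 7 α subunits differed by 0.0089 on the log2 scale.

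In BAT the share was 6.55, 5.88 and 5.60% in WT and 6.25, 4.26 and 4.55% in MCK-Musclin libraries, which overlapped. The means were 6.01% ± 0.49 and 5.02% ± 1.08 (SD, n = 3 each), and the log2 ratio differed by -0.29. The 2 tables were normalized separately, so iWAT and BAT were not tested against each other. No test was made on these scores, and 3 libraries against 3 allow no exact two-sided permutation p below 0.1.

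**Figure D4:**
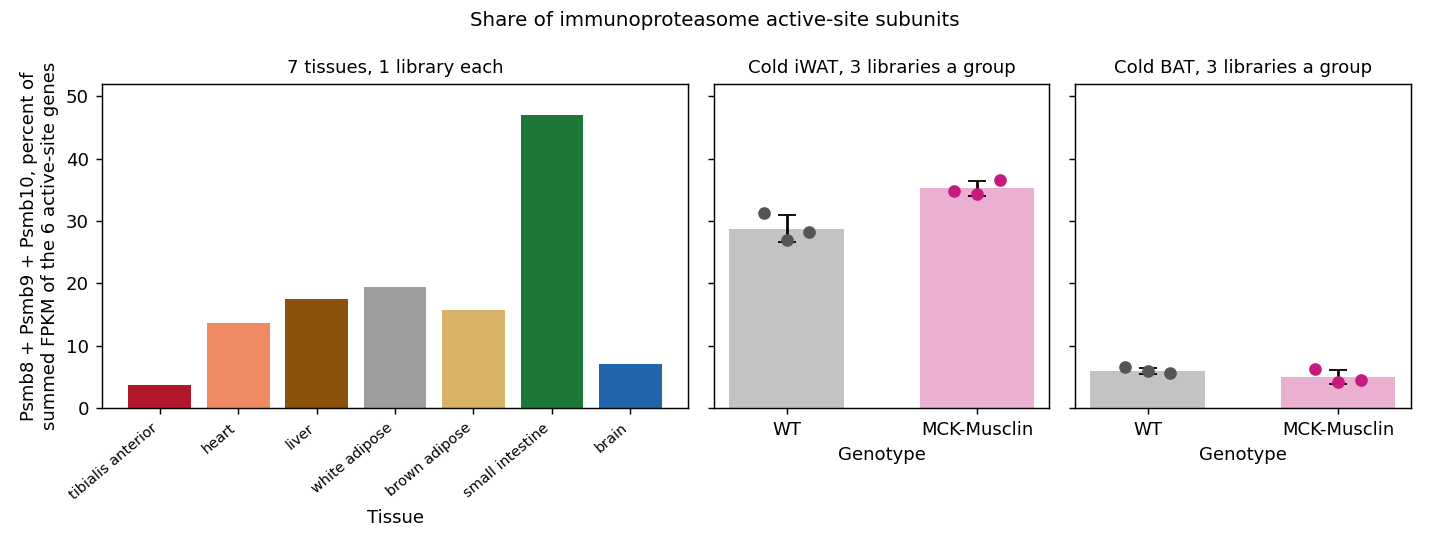
Share of Psmb8, Psmb9 and Psmb10 in the summed FPKM of the 6 active-site genes, in percent, for the 7 tissues (1 library each) and for cold iWAT and BAT (bars: group means with SD, points: libraries, n = 3). Small intestine reaches 47.0%, and the iWAT MCK-Musclin libraries (34.3 to 36.5%) lie above the WT libraries (26.9 to 31.2%).

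Markers of blood cells moved with the immunoproteasome genes in iWAT. The summed level of 16 leukocyte markers was 448 to 669 FPKM in WT and 845 to 963 FPKM in MCK-Musclin libraries, a ratio of means of 1.70. Of the 16, 14 were higher at an unadjusted p under 0.05 with limma, against 13.1% of all genes. Among them, the pan-leukocyte gene *Ptprc* had a log2 difference of 0.74 (SE 0.24, limma adjusted p = 0.211) and the B cell gene *Cd79a* of 1.06 (SE 0.27, limma adjusted p = 0.156). The immunoproteasome sum was 62.8 to 83.0 FPKM in WT and 94.0 to 98.7 FPKM in MCK-Musclin libraries, a ratio of 1.38. The standard sum was 166 to 183 and 172 to 184 FPKM. The sums of 3 heart markers (at most 8.33 FPKM) and 2 small intestine markers (at most 2.23 FPKM) were also higher without overlap in iWAT. The part of leukocytes in the values of *Psmb8*, *Psmb9* and *Psme2* was not tested.

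Brown and beige fat markers moved the other way in iWAT. Of the 8, 5 were lower at an unadjusted p under 0.05 with limma and 0 higher, against 3.44% and 13.1% of all genes. The median log2 difference of the 8 was -1.37. The uncoupling protein gene *Ucp1* had a log2 difference of -3.00 (SE 1.21, limma adjusted p = 0.282) and the lipid droplet gene *Cidea* of -1.45 (SE 0.48, limma adjusted p = 0.213). Their summed level was 526, 817 and 1006 FPKM in WT and 583, 189 and 98.6 FPKM in MCK-Musclin libraries. The groups overlapped, since the library labelled MCK-Musclin replicate 1, in which *Ostn* was listed at 0, lay within the WT range. In the same library *Psmb8* was the highest of the 6. The part of brown and beige fat cells in the values of the proteasome genes was not tested.

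Of 19 interferon response genes, 9 were higher in iWAT at p under 0.05 and 0 lower, with a median log2 difference of 0.49. At this p, 13.1% of all genes were higher and 3.44% lower. The summed level of the 19 genes overlapped, at 336 to 542 FPKM in WT and 501 to 767 FPKM in MCK-Musclin libraries. *Mx1*, an antiviral GTPase, had a log2 difference of 1.72 (SE 0.27, limma adjusted p = 0.143), and *Irf1*, the factor that induces *Psmb9*, of 0.40 (SE 0.15, limma adjusted p = 0.260). Of 11 genes of MHC class I peptide loading, 3 were higher and 0 lower, with a median of 0.28. They were *Tapbp* (log2 difference 0.55) and the transporters *Tap1* (0.59) and *Tap2* (0.39), with limma adjusted p-values of 0.148 to 0.181. *Tap1* had 21.9, 15.4 and 16.1 FPKM in WT and 26.3, 30.1 and 24.9 FPKM in MCK-Musclin libraries. The summed level of the 11 loading genes overlapped, at 3114 to 3741 FPKM in WT and 3530 to 4082 FPKM in MCK-Musclin libraries.

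Regulators and partners of the standard proteasome differed less in iWAT, with median log2 differences of -0.019 and -0.014. Of 11 regulators, *Nfe2l2*, the factor that drives proteasome genes under oxidative stress, was the only one with p under 0.05 in iWAT, and it was lower (log2 difference -0.28, SE 0.09, limma adjusted p = 0.220). *Nfe2l1* had -0.27 (SE 0.15, limma adjusted p = 0.418). Of all genes, 3.44% were lower in iWAT at an unadjusted p under 0.05. None of 10 partners such as *Pomp* and *Adrm1* and none of 6 ubiquitin genes and activating enzymes had p under 0.05 in iWAT. The summed level of those 6 did not overlap, at 1707 to 1970 FPKM in WT and 2011 to 2333 FPKM in MCK-Musclin libraries. Its ratio of means was 1.21.

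In BAT 7 of the 16 leukocyte markers passed the minimum mean, and *Csf1r*, the macrophage growth factor receptor, was the one with p under 0.05 (log2 difference 0.61, SE 0.11, limma adjusted p = 0.880). Their sum was 13.8 to 19.2 FPKM in WT and 14.8 to 34.5 FPKM in MCK-Musclin libraries, which overlapped. Of 15 interferon response genes tested, *Ifit2* was higher and none was lower at p under 0.05, with a median of -0.19. Of 11 genes of MHC class I loading none had p under 0.05, and the median was -0.25. Among the partners, the deubiquitinase *Usp14* was lower in BAT (log2 difference -0.37, SE 0.13, limma adjusted p = 0.968). None of the regulators had p under 0.05, and *Nfe2l1* had a log2 difference of 0.23 (SE 0.39). Fast muscle markers were higher in the MCK-Musclin libraries of BAT, 10 of 12 at p under 0.05, and their part in the levels of the proteasome genes was not tested. At this p, 2.18% of all genes were higher and 2.71% lower in BAT.

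**Figure D5:**
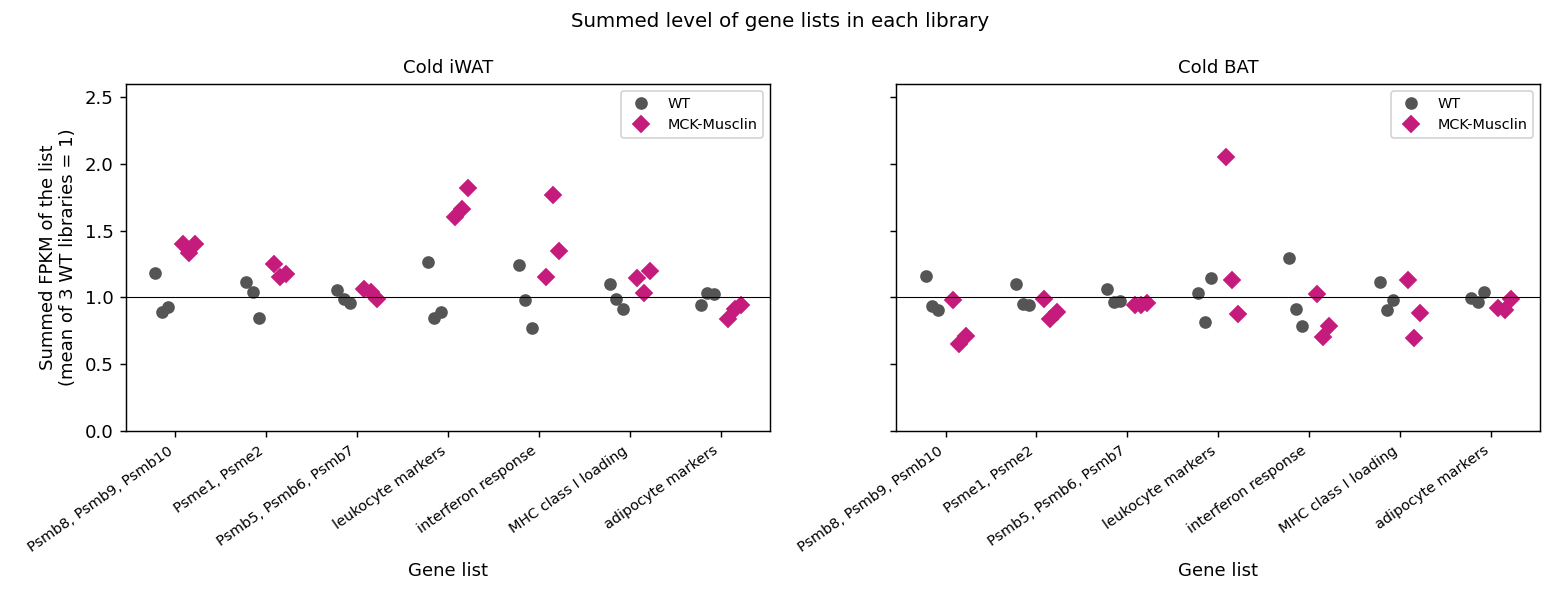
Summed FPKM of 7 gene lists in each cold iWAT and BAT library, divided by the mean of the 3 WT libraries of that tissue (circles: WT, diamonds: MCK-Musclin). In iWAT the immunoproteasome genes (ratio of means 1.38), the PA28 genes (1.19) and the leukocyte markers (1.70) lie higher in MCK-Musclin without overlap. The standard active-site genes (1.03), interferon response (1.42), MHC class I loading (1.13) and adipocyte markers (0.90) overlap.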

How the data were processed

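FPKM tables of 7 WT tissues, of cold BAT and of cold iWAT were used as deposited. Per the study's methods, the authors filtered reads with fastp and bowtie2, aligned to mm10 with HISAT2 without strand and computed FPKM with StringTie, while the labels also name Cuffdiff. FPKM corrects for gene length and library size, depends on the transcript models used, and lets very abundant genes lower all others. The iWAT table held 13756 genes, and its filter is not given in the sources used here. It also held columns of the authors' own comparison (fold changes, p-values and baseline means), which were not used. RNA of white fat was isolated with a kit and that of other tissues with TRIzol. In the 7-tissue and BAT tables, 287 repeated lines with identical values were dropped.

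Genes with a mean of at least 1 FPKM over the 6 libraries were tested on log2(FPKM + 1) with limma 3.58.1 in R 4.3.3 (eBayes with a trend), separately in iWAT (12197 genes) and BAT (10893 genes), with Benjamini-Hochberg adjustment over all genes of the table. FPKM are not counts, so no count model was run. On simulated data, limma at an adjusted p of 0.05 recovered 73 of 100 genes changed by 1 on the log2 scale and 19 of 100 changed by 0.5 in iWAT, and 67 and 17 of 100 in BAT. The simulation gave each gene independent noise and drew the changed genes from those above a minimum level. Variation shared by many genes of a library was not simulated, so recovery in the real data can differ. Tissues with 1 library were described without a test. Groups came from the labels. Replicate numbers name libraries and were not used as pairs in the main fit. Values in every library are given for *Psmb5* to *Psmb10*, *Psme1*, *Psme2*, members with an unadjusted p under 0.05 and the 6 with the widest range over tissues. Other members named were chosen after their values were seen, and up to 4 genes of each other list were named. The members and lists were chosen with earlier results of these data known. Promoters came from RefSeq on GRCm38.p6, and overlaps from the gene annotation of that build. Searches for other promoter motifs are not reported here. Alternatives covered pseudocounts, filters, scalings, variance estimates, a replicate block and each library left out. Depth is not given as counts, so no counting interval could be had.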

Additional observations from a re-analysis of the deposited data

Results flagged for a closer look

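*Psmb6* was the 1 of 46 members whose libraries all moved one way in iWAT and the opposite way in BAT. Its log2 difference was 0.072 in iWAT, where every MCK-Musclin library was higher, and -0.055 in BAT, where every one was lower. Both were smaller than their SE (0.082 in iWAT and 0.074 in BAT). The sign turned with median-ratio scaling in iWAT and with centring on adipocyte markers in BAT. The difference between the tissues was not tested, since the tables were normalized separately. Of 9707 genes tested in both tissues, 97 (0.999%) had this pattern.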

How the results depend on the processing

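The iWAT counts of members with an unadjusted p under 0.05 moved with the scaling. 5 were higher and 0 lower in FPKM, 2 and 1 with median-ratio scaling (*Psmb8* and *Psmb9* higher, *Psma3* lower), 2 and 0 with quantile normalization, and 15 and 0 when centred on adipocyte markers, which moved the median of all genes from 0.06 to 0.23. Of all genes called in iWAT, 79.1% were higher in FPKM, 64.6% with TPM, 55.7% with median-ratio scaling, 57.4% with quantile normalization and 98.6% when centred. Members past the cutoff of the study in iWAT, 2 in FPKM, numbered 1 with TPM, 0 with median-ratio scaling, 0 with quantile normalization, 1 with robust estimation and 4 when centred, and 3 with a pseudocount of 0.1 or 0.01. In BAT, centring gave 1 member higher and 0 lower, and 79.9% of all calls higher against 44.7% in FPKM. With one library left out, members higher in iWAT numbered 1 to 3, lower 0 to 1, past the cutoff 0 to 2 and past an adjusted p of 0.05 0 to 1; in BAT the numbers were 0 to 1, 0 to 3, 0 to 2 and 0.

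Signs turned only for small differences. In iWAT *Psmb5* was -0.0086 with TPM, -0.035 with median-ratio scaling, -0.024 with quantile normalization and -0.11 to 0.18 with one library left out. *Psmb6* was -0.0076 with median-ratio scaling, and *Psmb7* 0.13 when centred and -0.093 to 0.0081 with one library left out. In BAT, centring gave 0.020 for *Psmb6* and 0.0098 for *Psmb7*. Libraries with the same replicate number had correlations of deviations of 0.24, 0.06 and 0.11 in iWAT and -0.10 to 0.01 in BAT. In iWAT each WT library correlated best with its own number. MCK-Musclin replicate 2 correlated slightly more with WT replicate 3 (0.07). The labels do not state a pairing, and the main fit used none. With the replicate block, 6 members were higher and 0 lower in iWAT, *Psmd2* being added, and 0 were higher and 1 lower in BAT.

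Tissue sums depended most on scaling. The log2 of the sum over the median of the other 6 tissues was in FPKM, with TPM and with median-ratio scaling, respectively, 0.79, 0.90 and 0.35 for small intestine, 0.35, 0.72 and -0.51 for white adipose, 0.08, -0.24 and 0.91 for TA, 0.04, -0.19 and 0.46 for liver, -0.13, 0.41 and -0.61 for brain, -0.24, -0.79 and -0.37 for brown adipose, and -0.42, -0.89 and -0.0082 for heart. Members highest in TA numbered 7, 3 and 30, and in small intestine 27, 24 and 7. The small intestine ratio was 2.36, with 2.18 and 1.92 under its alternatives. The causes were not tested. FPKM without counts and 3 libraries a group limit the precision.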
